A study of Mus musculus with 2 samples.

Results

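Oxidative phosphorylation was examined through 71 genes that encode nuclear subunits of its complexes, out of 12393 genes measured. A gene was taken if at least 1 of its probe sets carried a single symbol of the following forms. These were Nduf with a letter from a, b, c, s or v and a number, and symbols that start with Uqcr or Atp5. Symbols with Cox and a number from 4 to 8 were taken if at most a letter from a to c and 1 digit followed. This left out Cox4i1 and Cox4i2. The symbol prefix assigned 33 genes to complex I, 8 to complex III, 13 to complex IV and 17 to complex V, which together were measured by 135 of the 20380 probe sets that name 1 gene. The study was designed to set B cells without serum response factor (SRF) against wild-type cells, all sorted from mouse spleen as positive for surface IgM and IgD. The samples used here are the wild-type group, with no genetic modification, as 2 samples on 1 array each, and cells without SRF were not analysed here. Strain, age, sex and treatment are not given in the labels used here, nor whether the samples came from separate animals. With 1 group there was no test and no p-value, and the spread between the arrays may be technical or biological.

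Oxidative phosphorylation is carried out in the inner mitochondrial membrane. Complex I takes electrons from NADH, complex III passes them from ubiquinol to cytochrome c, and complex IV delivers them to oxygen, while each pumps or translocates protons. Complex V, the ATP synthase, lets the protons flow back through a rotating ring and makes ATP in its F1 head. Most subunits are encoded in the nucleus and a few in mitochondrial DNA. Some subunits of complex IV exist as a widely expressed form and as a form typical of muscle or testis, each from its own gene. Resting B cells are small cells with low energy demand, and mitochondrial respiration is known to increase when they are activated.

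Values are signals on a linear scale, 1 per probe set and array. A gene was counted as above the floor if the same probe set exceeded, on both arrays, the 90th percentile of 78 probe sets for 57 genes restricted to other organs. That floor was 154 on replicate 1 and 87.1 on replicate 2, and the median signal was 103 and 66.6. Of 10 measured B cell genes 9 were above the floor, such as Cd79b at 2657 and 3129 and Ms4a1 at 3394 and 6347 on replicates 1 and 2, and of 34 marker genes of 6 other blood cell types 6 were. Of the B cell genes Pax5 was below the floor, at 21.5 and 15.6, and Cd79a was 15.3-fold higher on replicate 1. The T cell receptor genes Cd3e, Cd3d and Cd3g lay between 8.6 and 56.1. The 6 markers of other cells above the floor included Csf1r (286 and 249) and Lyz2 (291 and 178), of monocytes and macrophages. The others were S100a8 (164 and 450), S100a9 (205 and 230) and Ngp (327 and 187), of neutrophils, and Itga2b (161 and 102), of platelets. Of the 7 neutrophil genes these 3 are 42.9%, against 32.6% of all genes. The arrays also differed in Xist, at 740.4 and 15.3, and in the Y-linked Eif2s3y, at 3.4 and 248.7. This is a female pattern on replicate 1 and a male pattern on replicate 2, while the labels give no sex. Of other Y-linked genes, Kdm5d gave 88.4 and 175.9, and Uty was below the floor on both arrays. Signal ratios of 3′ to 5′ control probe sets were 3.57 and 8.15 for Actb. For Gapdh they were 1.31 and 9.46, the latter with the 5′ signal set to the floor. The part of these differences in the results below was not tested.

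Most genes of all 4 complexes were above the floor. The floor was passed by 64 of the 71, or 90.1%, while the same held for 32.6% of all genes measured. The counts were 30 of 33 for complex I, 8 of 8 for complex III, 10 of 13 for complex IV and 16 of 17 for complex V. Over the 64 genes the signals ran from 163 to 2893 on replicate 1 and from 93.4 to 16205 on replicate 2. Between the arrays, log2 signals had a pooled SD of 0.73 over these genes, or 1.66-fold, and 0.65 over all 4045 genes above the floor (n = 2 arrays).

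**Figure D1:**
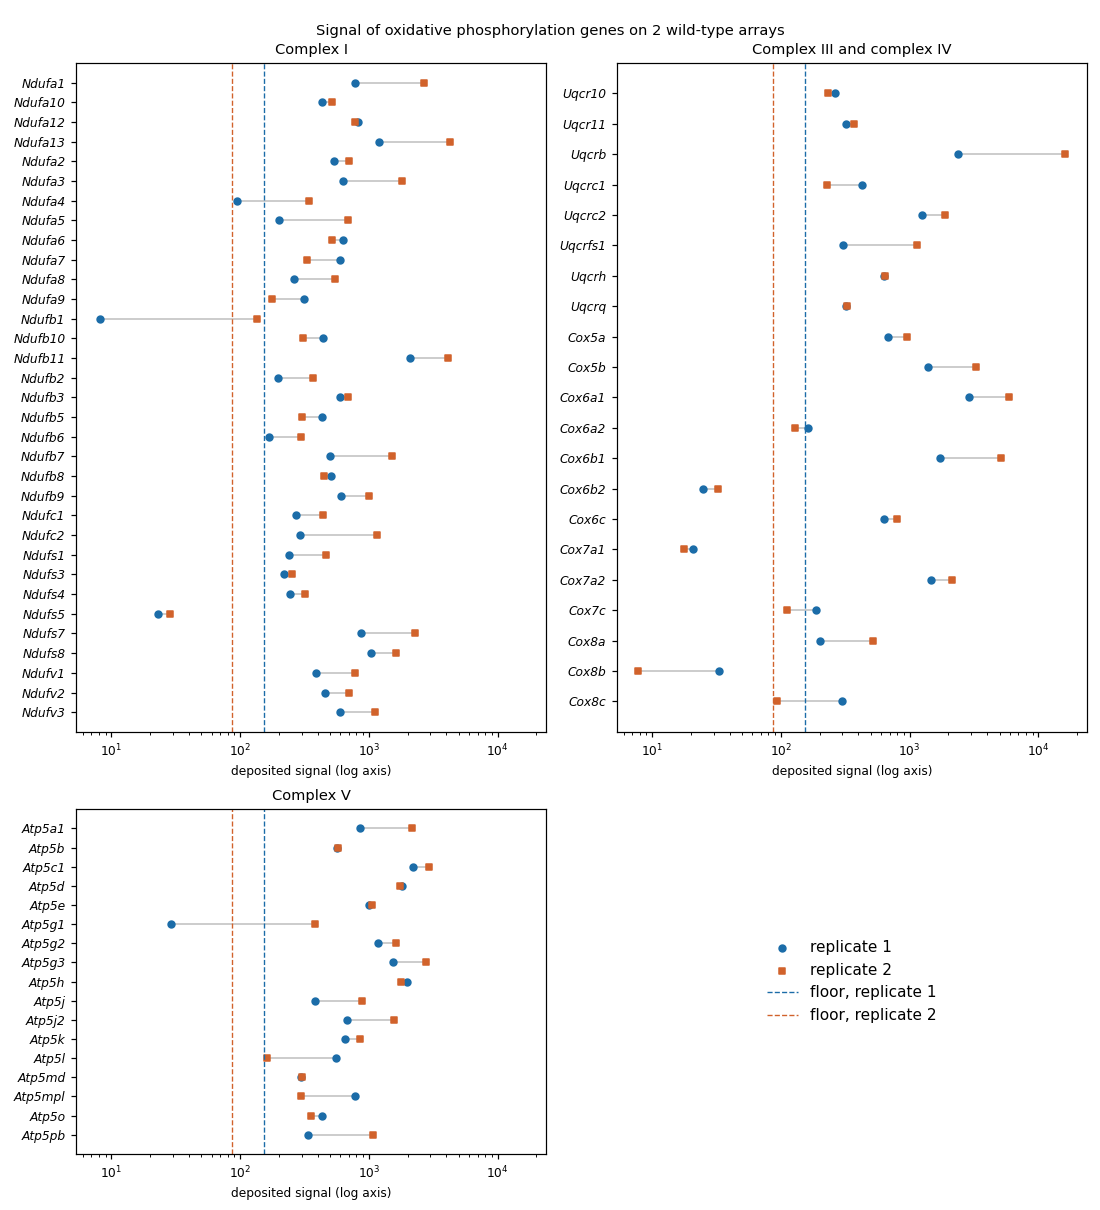
Deposited signal (log axis) of each of the 71 genes on replicate 1 (circles) and replicate 2 (squares), by the probe set used for the gene, grouped by complex; dashed lines are the floors of 154 and 87.1. Of the 71 genes 64 lie to the right of both floors, and Cox6b2, Cox7a1, Cox8b and Ndufs5 lie to the left of both on both arrays.

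The 7 genes not above the floor fell into 2 kinds. Cox6b2, Cox7a1, Cox8b and Ndufs5 were below it on both arrays. Their signals on replicates 1 and 2 were 24.9 and 32.2, 20.7 and 17.8, 33.1 and 7.8, and 23.0 and 28.7. The first 3 encode forms of complex IV subunits typical of testis or of muscle, and Ndufs5 encodes an accessory subunit of complex I. Ndufa4, Ndufb1 and Atp5g1 were above the floor on replicate 2 only. Ndufa4 gave 94.0 and 344, Ndufb1 8.2 and 135, and Atp5g1 29.1 and 384. Each of the 7 was measured by 1 probe set. Ndufa4 bears a complex I name, but its protein was later placed in complex IV.

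In complex I the catalytic core binds the flavin and the iron-sulfur clusters that carry electrons from NADH to ubiquinone. All 6 measured core genes were above the floor and, by the probe set used, higher on replicate 2. Of all genes measured 32.6% were above the floor, and of those 49.4% were higher on replicate 2. Ndufs3 gave 220.4 on replicate 1 and 251 on replicate 2, the closest pair of the 6. Ndufs1, the large iron-sulfur subunit, gave 239.6 and 467. Ndufv2, another iron-sulfur subunit, gave 455 and 699.9, and by its 2 other probe sets 227.5 and 870, and 221.2 and 1213.8, which are 3.82-fold and 5.49-fold apart. By the probe set used both were under 2-fold apart, as was Ndufs8, which ligates 2 of the clusters and gave 1037 and 1611, while of its other probe sets 1 gave 627.6 and 413.5. Ndufv1, which holds the flavin, gave 387 and 778, a 2.01-fold difference. Ndufs7, next to the ubiquinone site, gave 867 and 2280.4, a 2.63-fold difference. The median of the log2 differences, replicate 2 minus replicate 1, was 0.80 over the core and 0.72 over the 24 accessory genes above the floor.

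Accessory subunits surround the core of complex I and are needed for its assembly and stability. Of the 24 above the floor, 17 were higher on replicate 2 and 7 on replicate 1, or 70.8% higher on replicate 2. Among all genes above the floor that share was 49.4%. Of the 24, 7 were over 2-fold apart, each with the higher signal on replicate 2. These are 29.2%, against 14% of all genes above the floor. Ndufc2, a membrane arm subunit, gave 294 and 1148, a 3.91-fold difference. Ndufa13, also known as GRIM-19, gave 1203 and 4271, and Ndufa1 gave 779 and 2696. These are differences of 3.55-fold and 3.46-fold. Ndufa5, a subunit of the hydrophilic arm, was 3.38-fold apart with 202 and 683, Ndufb7 3.04-fold with 497 and 1509.6, Ndufa3 2.90-fold with 624 and 1811, and Ndufa8 2.10-fold with 260.5 and 547. For Ndufa3 the second probe set gave 527 and 1663, so both probe sets were over 2-fold apart. For Ndufb7 the second probe set gave 349 and 379, which are 1.09-fold apart. In the other direction the widest gaps by the probe set used were those of Ndufa7, with 592 and 333, and Ndufa9, with 316 and 178, both 1.78-fold. The 3 probe sets of Ndufa7 above the floor were all lower on replicate 2. Of these 1, with 607.7 and 232, was 2.62-fold apart.

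Complex III includes a pair of core proteins and the Rieske iron-sulfur protein. All 8 of its genes taken by the naming rule were above the floor on both arrays, with a log2 median of 0.11. Its cytochromes are not among these 8, and Cyc1 is given below. Uqcrfs1, which encodes the Rieske protein, gave 304 and 1146, a 3.77-fold difference. Of the core genes Uqcrc1 was lower on replicate 2, with 429 and 228, and Uqcrc2 was higher there, with 1253 and 1867. Uqcrb, a ubiquinone-binding protein, had the widest gap of the 64 genes, with 2376 and 16205, which is 6.82-fold. Its second probe set gave 78.7 and 286, below the floor on replicate 1. The hinge protein gene Uqcrh gave 629 and 638, Uqcrq 321 and 327, Uqcr11 321 and 369, and Uqcr10 265 and 233. By the probe set used these small subunits lay within 1.15-fold between the arrays. Another probe set of Uqcrq above the floor gave 172.8 and 101, a 1.71-fold difference. A further one gave 217.9 and 66.6, below the floor on replicate 2.

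In complex IV, 4 of 4 widely expressed forms passed the floor, and 2 of 5 forms typical of muscle or testis. The latter share is 40%, against 32.6% of all genes. Of the widely expressed forms, Cox6a1 gave 2893 and 5957, Cox6b1 1713 and 5155, Cox7a2 1460 and 2133, and Cox8a 201 and 524. By the probe set used all were higher on replicate 2, and only Cox7a2 was within 2-fold. Another probe set above the floor was lower there for Cox6b1 (1068 and 902), Cox7a2 (879.5 and 760.3) and Cox8a (345 and 270). For Cox6a1 the other probe set was higher there, with 640 and 1003. Of the forms typical of muscle or testis, Cox6a2 gave 163 and 128 and Cox8c 300.1 and 93.4. Cox6a2 exceeded the floor of replicate 1 by 8.5 signal units, and Cox8c exceeded that of replicate 2 by 6.3. Cox7a1, Cox8b and Cox6b2 were below both floors, as given above. The other complex IV genes have no such alternative form in the list. Cox5a gave 681 and 948, Cox6c 629 and 791, Cox7c 189 and 111, and Cox5b 1382 and 3296, a 2.39-fold difference. The other probe sets of Cox5a, also above the floor, gave 405.4 and 1543, and 215.8 and 497.3. These are 3.81-fold and 2.30-fold apart.

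Promoter windows are shown for the complex IV genes with an alternative form, some of which were above the floor and some below it. They run from 250 bases before to 50 after the start of the gene and are credited to RefSeq on GRCm38.p6. Of the 9 isoform genes 7 were matched, Cox6a2 and Cox8c not. Capitals mark matches, on either strand, to the NRF1 motif (10 bases of which 1 is free), CCGGAAG (ETS factors such as GABPA), AAGATGGC (YY1), TGACGTCA (CRE), GGGCGG (Sp1), the TBP-binding TATAAA and the CArG box bound by SRF. None of these 7 windows had marks that overlapped. The widely expressed forms are shown first, Cox6a1 at chr5:115348909-115349208 (minus strand), Cox6b1 at chr7:30626065-30626364 (minus strand), Cox7a2 at chr9:79759804-79760103 (minus strand) and Cox8a at chr19:7217567-7217866 (minus strand). The muscle or testis forms follow, Cox6b2 at chr7:4753045-4753344 (minus strand), Cox7a1 at chr7:30183921-30184220 (plus strand) and Cox8b at chr7:140900397-140900696 (minus strand).
Cox6a1: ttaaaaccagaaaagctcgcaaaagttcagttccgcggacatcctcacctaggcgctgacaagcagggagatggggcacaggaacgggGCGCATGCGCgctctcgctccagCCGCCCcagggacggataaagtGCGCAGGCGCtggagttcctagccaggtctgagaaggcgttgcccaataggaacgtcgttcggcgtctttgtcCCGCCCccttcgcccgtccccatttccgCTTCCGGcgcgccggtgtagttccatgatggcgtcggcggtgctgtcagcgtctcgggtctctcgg
Cox6b1: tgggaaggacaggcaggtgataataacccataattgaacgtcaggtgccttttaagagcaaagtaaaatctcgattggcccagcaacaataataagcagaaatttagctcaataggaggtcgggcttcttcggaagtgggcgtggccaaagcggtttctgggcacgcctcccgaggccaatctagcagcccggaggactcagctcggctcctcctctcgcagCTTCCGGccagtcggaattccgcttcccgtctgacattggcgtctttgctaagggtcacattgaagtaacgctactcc
Cox7a2: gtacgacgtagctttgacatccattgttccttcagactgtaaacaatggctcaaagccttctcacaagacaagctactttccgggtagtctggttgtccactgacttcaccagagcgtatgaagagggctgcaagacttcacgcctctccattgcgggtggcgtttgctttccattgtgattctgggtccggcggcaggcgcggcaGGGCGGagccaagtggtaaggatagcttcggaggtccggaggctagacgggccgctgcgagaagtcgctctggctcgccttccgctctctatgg
Cox8a: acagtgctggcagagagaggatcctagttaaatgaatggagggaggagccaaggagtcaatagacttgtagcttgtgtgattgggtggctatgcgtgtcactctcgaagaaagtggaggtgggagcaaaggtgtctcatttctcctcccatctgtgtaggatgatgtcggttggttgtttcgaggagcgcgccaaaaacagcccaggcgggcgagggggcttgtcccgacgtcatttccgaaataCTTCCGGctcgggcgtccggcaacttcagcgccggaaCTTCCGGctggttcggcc
Cox6b2: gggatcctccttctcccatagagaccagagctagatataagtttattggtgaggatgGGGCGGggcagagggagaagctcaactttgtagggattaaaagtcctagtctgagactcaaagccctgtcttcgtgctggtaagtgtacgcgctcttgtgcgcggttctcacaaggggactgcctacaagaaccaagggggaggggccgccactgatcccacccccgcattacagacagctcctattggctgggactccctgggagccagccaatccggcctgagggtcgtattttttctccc
Cox7a1: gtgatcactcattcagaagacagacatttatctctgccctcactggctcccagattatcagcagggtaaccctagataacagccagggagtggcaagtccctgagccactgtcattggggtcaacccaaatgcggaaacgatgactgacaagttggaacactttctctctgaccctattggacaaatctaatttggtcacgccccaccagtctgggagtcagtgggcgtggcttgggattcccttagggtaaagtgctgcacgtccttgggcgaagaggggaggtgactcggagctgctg
Cox8b: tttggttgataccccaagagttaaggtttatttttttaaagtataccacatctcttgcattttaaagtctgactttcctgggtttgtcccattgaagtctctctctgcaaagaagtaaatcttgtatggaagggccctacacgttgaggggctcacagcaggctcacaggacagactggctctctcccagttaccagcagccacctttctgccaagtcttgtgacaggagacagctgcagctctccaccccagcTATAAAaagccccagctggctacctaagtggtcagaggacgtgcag

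The windows of the widely expressed forms held between 17 and 32 CpG dinucleotides, those of the muscle or testis forms between 2 and 10. The median was 8 over all genes with a window and 23 over those above the floor. Cox6a2 and Cox8c, the muscle or testis forms above the floor, had no window to compare. Cox6a1, with the most, held 2 NRF1 matches, 1 ETS match and 2 Sp1 matches. Cox6b1 held 1 ETS match and Cox8a 2, and Cox7a2 held 1 Sp1 match. Among the 3 windows of the other forms, Cox8b held a TATAAA match and Cox6b2 an Sp1 match, and Cox7a1 had no match to any of the 7 motifs. A match describes letters in the window and not a bound site.

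Over the whole set, 60 of the 71 genes had a promoter window, and a gene was counted if any of its windows held the motif. NRF1 matches were found for 12 genes, or 20%, against 5.19% of all 27025 genes with a window and 14.4% of the 3324 genes above the floor with one. YY1 matches were found for 9 genes, or 15%, against 3.19% and 6.98%. ETS matches were found for 15 genes, or 25%, against 9.93% and 24.2%, so that share was close to that of genes above the floor. Sp1 matches were found for 23 genes, or 38.3%, against 38.2% and 71.7%. A CArG box was found in 0 of the 60 genes, against 1.81% and 1.56%. By complex, at least 1 of NRF1, ETS and YY1 was found for 14 of 30 genes of complex I, 3 of 5 of complex III, 3 of 10 of complex IV and 12 of 15 of complex V. Over all members that was 53.3%, against 39.5% of genes above the floor and 16.4% of all genes with a window. The share was 46.7% for complex I and 30% for complex IV. The 62 mitochondrial ribosomal protein genes with a window gave similar shares for NRF1 and YY1, 19.4% and 16.1%. Mitochondrial ribosomal proteins translate the subunits encoded in mitochondrial DNA.

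Complex V divides into the F1 head, the c ring that turns in the membrane, the peripheral stalk and small membrane subunits. By the probe set used, the F1 genes had the smallest pooled SD of log2 signal of these parts, 0.45. It was 0.48 for the c ring, 0.74 for the stalk and 0.81 for the small membrane subunits. Atp5b, the catalytic beta subunit, gave 566 and 571, Atp5d 1822 and 1746, Atp5e 1008 and 1066, and Atp5c1, the central rotor subunit, 2197 and 2915. Another probe set of Atp5d above the floor gave 162.3 and 357.8, a 2.20-fold difference. Of the 5 F1 genes only Atp5a1, the alpha subunit, was over 2-fold apart by the probe set used, with 849.5 and 2159. Its other probe sets were lower on replicate 2, with 1039 and 893, and 239 and 90.3. Of the 3 genes that encode the c ring subunit, Atp5g2 gave 1169.7 and 1608 and Atp5g3 1529 and 2763, while Atp5g1 was below the floor on replicate 1.

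In the peripheral stalk Atp5pb, the b subunit, gave 335 and 1078, a 3.22-fold difference, and Atp5j, coupling factor F6, gave 379 and 881, a 2.32-fold difference. The second probe set of Atp5pb gave 374 and 473, a 1.26-fold difference. Atp5h and Atp5o, which encode the d subunit and OSCP, were slightly lower on replicate 2, with 1975 and 1759, and 429 and 352. Among the small membrane subunits the arrays differed in both directions. Atp5l gave 552 and 163 and Atp5mpl 776 and 299, so these were 3.40-fold and 2.60-fold higher on replicate 1. Atp5j2 was 2.33-fold higher on replicate 2 by its brighter probe set, with 677 and 1576, and Atp5k and Atp5md lay within 2-fold, with 656 and 850.4, and 294 and 302.

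Across the 64 genes, replicate 2 exceeded replicate 1 over 2-fold in 19 and the reverse held in 3, where the corresponding shares of all genes above the floor were 14% and 12.6%. The former is 29.7% of the 64 and the latter 4.69%. The 3 were Atp5l, Cox8c and Atp5mpl. By complex, the counts over 2-fold higher on replicate 2 were 9 of 30 for complex I, 2 of 8 for complex III, 4 of 10 for complex IV and 4 of 16 for complex V. The median log2 difference was 0.47 over the 64 genes, 0.72, 0.11, 0.51 and 0.23 over complexes I, III, IV and V, and -0.019 over all genes above the floor. Mitochondrial ribosomal protein genes had a median of 0.11 over 48 genes above the floor, with 6.25% over 2-fold higher on replicate 2. Cytosolic ribosomal protein genes had a median of 0.011 over 43 genes, with 6.98%.

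**Figure D2:**
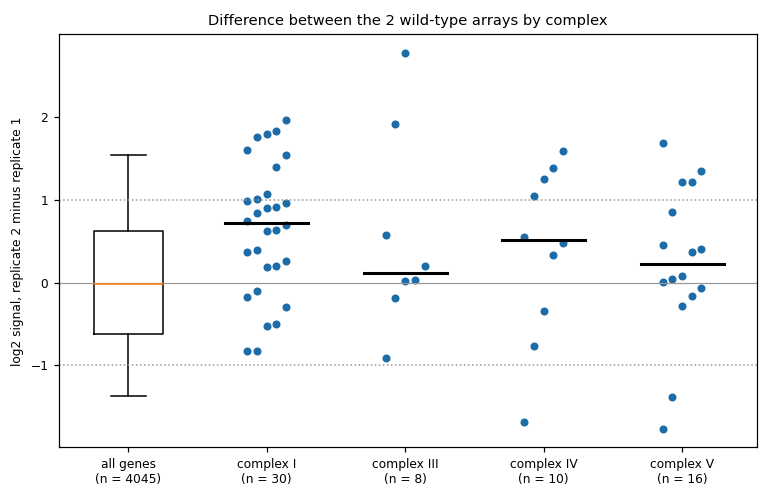
Log2 signal of replicate 2 minus replicate 1 for all genes above the floor (box, quartiles and median, whiskers from the 5th to the 95th percentile) and for each oxidative phosphorylation gene above it (points), with the median of each complex as a bar; dotted lines mark 2-fold. The medians of the complexes are 0.72, 0.11, 0.51 and 0.23, and points of all 4 complexes lie on both sides of 0.

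The difference between the arrays moved with the signal itself. Among all genes above the floor, split into 4 equal bins by mean signal over both arrays, the median log2 difference was -0.66 in the dimmest bin and 0.64 in the brightest. The dimmest bin is bounded by the floor, which was higher on replicate 1, so that no gene in it could be over 2-fold higher on replicate 2. Of the 64 oxidative phosphorylation genes 38 lay in the brightest bin, from a mean signal of 498 upwards, and 3 in the dimmest. Within the brightest bin their median was 0.80, with 16 of 38 genes, or 42.1%, over 2-fold higher on replicate 2, against 32.3% of all genes there. In the bin below, the median was 0.025 over 17 genes against 0.21 over all genes. After quantile normalization, which gives both arrays the same distribution of signals, the median of the 64 genes was -0.036 and that of all genes -0.064, and over 2-fold gaps were left in 11 genes towards replicate 2 and in 5 towards replicate 1. These are 17.2% and 7.81% of the 64, against 9.46% and 10.6% of all genes. The medians of complexes III, IV and V then turned to -0.087, -0.10 and -0.21, and that of complex I was 0.33.

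**Figure D3:**
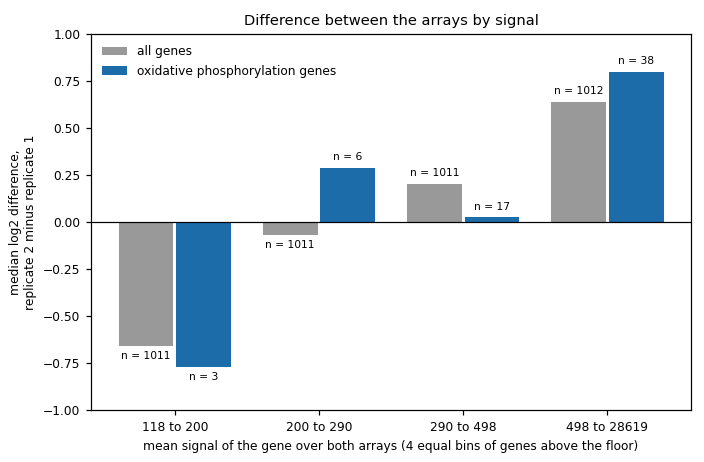
Median log2 signal of replicate 2 minus replicate 1 in 4 equal bins of mean signal, for all genes above the floor (grey) and oxidative phosphorylation genes (blue), with the number of genes at each bar. In the brightest bin the medians are 0.64 and 0.80, and 38 of the 64 oxidative phosphorylation genes lie there.

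The difference also moved with the class of probe set. Probe sets ending in _at alone are designed for 1 transcript. The other classes are _a_at, for several transcripts of a gene, _s_at, for transcripts of more than 1 gene, and _x_at, with probes that may hybridize to other sequences. Over oxidative phosphorylation genes the 42 probe sets ending in _at above the floor had a median log2 difference of 0.017, and 4 were over 2-fold higher on replicate 2, or 9.52%, against 8.99% of all such probe sets. The 65 probe sets of the other classes had a median of 0.75, and 27 were over 2-fold higher on replicate 2, or 41.5%, against 21.2%. The medians were 0.91 for _a_at, 0.61 for _s_at and 0.53 for _x_at, where those over all genes were 0.094, 0.23 and 0.45. Within the brightest bin the split was again seen, with 0.27 over 18 probe sets ending in _at and 1.01 over 39 of the other classes, against 0.52 and 0.74 over all genes.

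Both classes were above the floor for 21 of the genes, and in 19 of these the other classes gave the larger value of replicate 2 minus replicate 1. The median gap within a gene was 1.09 on the log2 scale, against 0.69 over the 470 such genes on the array, of which 72.1% went that way. Cox6b1 gave 1068 and 902 by the probe set ending in _at and 1713 and 5155 by the other. Ndufb5 gave 435 and 303 by the former and 182 and 506 by the latter. For Cox6c the values were 629 and 791, and 173 and 517. Thus replicate 2 was higher by only 1 of the probe sets of Cox6b1 and Ndufb5, and by both of Cox6c. The exceptions were Ndufa3 and Atp5h, whose classes lay 0.12 and 0.15 apart on that scale the other way. In 11 of 28 genes with at least 2 probe sets above the floor, the log2 differences had opposite signs and lay over 1 apart. These were Atp5a1, Atp5d, Atp5j2, Cox5b, Cox6b1, Cox8a, Ndufb11, Ndufb2, Ndufb5, Ndufs8 and Ndufv1.

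**Figure D4:**
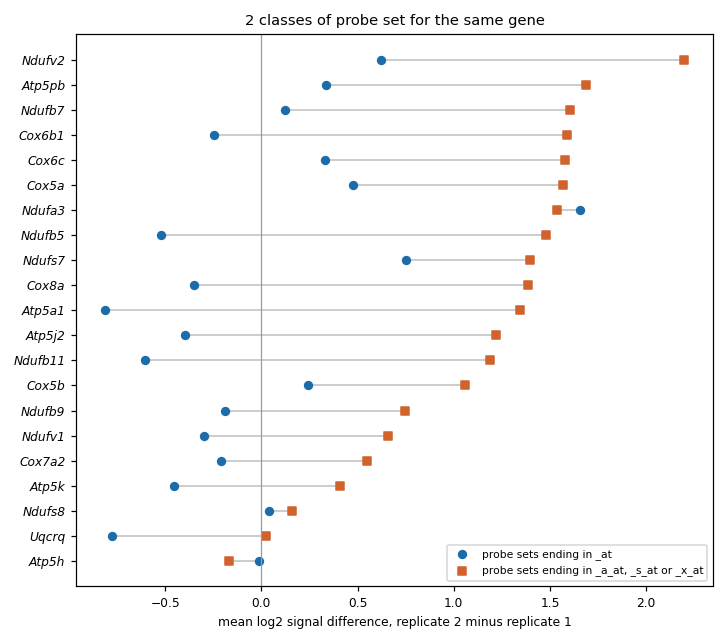
Mean log2 signal of replicate 2 minus replicate 1 over the probe sets ending in _at (circles) and over those ending in _a_at, _s_at or _x_at (squares), for each of the 21 genes with both classes above the floor. The square lies to the right of the circle in 19 genes, and only in Ndufa3 and Atp5h to the left.

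Of the 22 genes over 2-fold apart, 11 had 1 probe set above the floor and 11 had more. Among the latter, only Ndufa3 was over 2-fold apart by each of its probe sets above the floor. The 11 with 1 such probe set were Ndufa1, Ndufa13, Ndufa5, Ndufa8, Ndufc2, Uqcrb, Uqcrfs1, Atp5j, Atp5l, Atp5mpl and Cox8c. Of these Uqcrfs1, Atp5j, Ndufa8, Atp5l, Atp5mpl and Cox8c were measured by a probe set ending in _at. The first 3 were higher on replicate 2 and the last 3 on replicate 1.

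Other genes of the pathway, from lists outside the naming rule, are given here by the probe set used for each gene. Complex II feeds electrons from succinate into the chain, and 3 of its 4 genes were above the floor, or 75%, against 32.6% of all genes. Sdha, the flavin subunit, gave 499.6 and 1117, a 2.24-fold difference, and by its second probe set 226 and 465. Sdhb, an iron-sulfur subunit, gave 729.5 and 648, and Sdhc, a membrane anchor, 184 and 136. Sdhd gave 155 and 32.2 by the probe set used and was below the floor on replicate 2 there.

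Of 17 measured subunit and carrier genes outside the rule, complex II included, 11 were above the floor, and 3 of them, against 0 in the other direction, were over 2-fold higher on replicate 2. The 3 were Sdha, Cox7a2l, a factor of supercomplex assembly, with 1402 and 3978, and Cyc1, which encodes cytochrome c1 of complex III, with 562 and 1151. Ndufab1, the mitochondrial acyl carrier protein, gave 427 and 358, Uqcc3 gave 229 and 243 and Dmac2 314 and 290.1. Of 32 assembly factor genes, Uqcc1, Uqcc2 and Uqcc3 of the former list among them, 17 were above the floor, a share of 53.1%. Over 2-fold gaps were found in 1 towards replicate 2 and in 3 towards replicate 1. These are 5.88% and 17.6% of the 17, against 14% and 12.6% of all genes above the floor. The 1 was Coa5, a complex IV assembly factor, with 213 and 590. The 3 were Cox15, needed for heme A, with 210.4 and 87.8, Pet100 with 214 and 101, and Sdhaf2, which attaches flavin to Sdha, with 627 and 246. On replicate 2 Cox15 lay just above the floor of 87.1. Its other probe sets, not above both floors, gave 50.2 and 112.8, 19.6 and 67.7, and 120.3 and 101.1. The second probe set of Sdhaf2 gave 146 and 172.9, below the floor on replicate 1. Coa3, Cox19, Tmem70 and Uqcc3 lay within 1.07-fold.

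Among 16 nuclear regulators of mitochondrial genes 11 were above the floor, or 68.75%, against 32.6% of all genes. Of the 11, 1 was over 2-fold higher on replicate 2, or 9.09%, against 14% of all genes above the floor. This was Yy1, with 372 and 862. Its other probe sets above the floor gave 289.6 and 407, and 254 and 109. Nrf1 gave 164 and 283, and by another probe set above the floor 273.9 and 88.3, in the opposite direction. Gabpa, with 129 and 79.3 by its brightest probe set, was not above the floor on both arrays by any 1 probe set. Nrf1 and Gabpa were named after their values were seen, because the NRF1 and ETS motifs were searched. Polrmt, Polg2, Tfb2m and Lrpprc, which act in mitochondrial transcription, replication or RNA stability, differed by under 1.25-fold in the probe set that stood for each, while another of Polrmt gave 348.6 and 97.5. Of 11 carriers and channels 8 were above the floor, or 72.7%, against 32.6% of all genes. These 8 differed by under 2-fold in the probe set that stood for each. Among them were Slc25a4, an ADP/ATP carrier, with 394.5 and 411, and Vdac3 with 347 and 375. Slc25a11 gave 239 and 181, and Slc25a10 gave 321 and 228. Other probe sets above the floor gave 171.9 and 433.8 for Slc25a4, and 681.4 and 263 for Vdac1, a channel of the outer membrane, so that both were over 2-fold apart there. The 1 gene of mitochondrial DNA named in the annotation, ND5 of complex I, gave 2510.0 and 4008.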

How the data were processed

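Total RNA of 2 samples of sorted splenic B cells was hybridized to 1 array each. The authors deposited linear signal intensities from MAS5, per the submitters' processing notes, without a version or parameters. MAS5 multiplies each array by 1 factor, and after trimming 2% at each end both columns had a mean of 150.0 to 150.1. Arrays give no read depth, and their number limits the precision. No further normalization was applied.

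The table held 22690 probe sets. The 64 control probe sets were left out of gene results, and of the others 20380 named 1 gene, 691 several and 1555 none. Names came from the supplied platform annotation. Of probe sets naming several genes, 7 included a name matching the rule and were not used. For each gene the probe set of highest mean log2 signal was used, among those above the floor on both arrays. Log2 differences subtract replicate 1 from replicate 2, and over 2-fold apart is a description and not a test. Replicate numbers follow accession order.

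The members and lists were chosen with earlier results of these data known. Named are all members below the floor, over 2-fold apart, in the core, isoform, F1, c ring or stalk lists, or with opposed probe sets, and, of the other lists, those over 2-fold apart and up to 4 of the most alike. Genes described beyond that rule were added after their values were seen. The calculation was tested on simulated data. Alternatives covered the floor, probe sets, membership, scaling and pseudocount. Python 3.11.15, numpy 2.4.6, pandas 2.3.3 and matplotlib 3.10.9 were used.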

Additional observations from a re-analysis of the deposited data

How the results depend on the processing

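No paired analysis was possible because there was 1 group. The number of the 71 genes above the floor was 64 as reported and between 56 and 64 under the probe set, floor, membership and scaling alternatives, those without _x_at and _s_at included, leaving aside the 2 choices made after seeing the data. It was 64 to 67 on 1 array alone, with 30 to 32 for complex I, 8 for complex III, 10 for complex IV and 16 to 17 for complex V. With probe sets ending in _at alone, a choice made after seeing the data, it was 40, of which 16 were in complex I and 4 in complex III, and 55 genes had such a probe set. With only the other classes it was 45 of 47, with 5 in complex III and 9 in complex V.

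The count over 2-fold higher on replicate 2 was 19, but 11 with the mean over all probe sets, 12 without _x_at and _s_at, 11 after quantile normalization, 37 after median centring and 4 with _at alone. As shares of members above the floor, against all genes above it, these are 29.7% against 14%, 18.6% against 8.67%, 21.4% against 11.5%, 17.2% against 9.46%, 57.8% against 34.5% and 10% against 8.98%. With _at alone, 16 of the 22 genes over 2-fold apart had a value, and 7 of them were over 2-fold apart in the same direction. On replicate 1 the count was 3, but 5 after quantile normalization and 0 with only the _a_at, _s_at and _x_at classes. Median centring moved the median of all genes above the floor from -0.019 to 0.61. The members' median minus that of all genes was 0.49 as reported and ran from 0.38 to 0.77 under the alternatives other than the 2 by class made after seeing the data, apart from 0.028 after quantile normalization. It was 0.16 with _at alone and 0.71 with only the other classes. The median of complex IV was -0.23 and 1.32 under these, and that of complex V was -0.17 without _x_at and _s_at.

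Some genes over 2-fold higher on replicate 2 changed sign. Atp5a1 gave -0.093 with the mean over all probe sets or over those above the floor, and -0.22 without _x_at and _s_at or with _at alone. Cox8a gave -0.35 without _x_at, without both, with a 95th-percentile floor and with _at alone, and -0.42 after quantile normalization. Cox5b gave -0.017 without _x_at, also without _s_at. Atp5j2 gave -0.40 without both and with _at alone, under which Cox6b1 gave -0.24 and Ndufv1 -0.30. In each case another probe set, or a mean over probe sets, stood for the gene.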
